A study of Sus scrofa with 19 samples.

Results

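The expression of 9 genes that take up, store, sense and export iron (TFRC, SLC11A2, FTH1, FTL, SLC40A1, ACO1, IREB2, HMOX1 and ABCB8) was examined in LV myocardium of pigs. The genes were looked up by symbol in the expression table of the authors, which holds 14744 genes, and read by Ensembl identifier from the count files, which hold 25879. Of the 9 genes, 7 were found in that table and had counts, and SLC11A2 and HMOX1 were absent from it and had 0 counts in all 19 libraries. RNA came from 19 pigs labelled as female large whites, with 1 library per pig, and no age is given in the labels. DOX (n = 5) stands for pigs given doxorubicin, an anthracycline anti-cancer drug, and MYO (n = 5) for pigs given Myocet, its liposomal citrate complex, both at 60 mg/m2 in each of 3 cycles with tissue of the anterior wall taken at 3 months. RemoLV (n = 3) stands for reperfused infarction after a coronary occlusion of 90 min, with tissue of the remote posterior wall at 6 months. Hyper (n = 3) stands for an artificial stenosis of the aortic isthmus made with a stent, and Control (n = 3) for animals called sham-operated in the labels and untreated in the methods of the study, both with anterior wall tissue at 6 months. The DOX and MYO data were taken by the authors from an earlier study, so that for these 10 libraries drug, follow-up time and origin of the libraries cannot be told apart. A marker of sex, given below, splits the libraries in the same way.

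Cells take up transferrin-bound iron through the receptor TFRC, and SLC11A2 (DMT1) carries the iron out of the endosome into the cytosol. Iron that is not used is stored in ferritin, a shell built of heavy (FTH1) and light (FTL) subunits, or leaves the cell through ferroportin (SLC40A1), the only known iron exporter of mammalian cells. ACO1 (IRP1) and IREB2 (IRP2) sense cytosolic iron and bind iron-responsive elements, short stem-loops in mRNAs, which blocks translation when the loop lies in the 5′UTR. HMOX1 frees iron from haem, and ABCB8 is a transporter of the inner mitochondrial membrane that has been tied to the export of iron from mitochondria. Anthracyclines bind iron, and iron in mitochondria has been linked with their harm to the heart.

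Iron-responsive elements are shown because they are the sequence through which ACO1 and IREB2 act on the other members. The sense strand of the longest RefSeq mRNA of each gene (Sscrofa11.1, the build named by the authors) was searched for a bulged C followed by 5 stem bases, a loop of 6 bases beginning with CAGTG and 5 bases that pair with the stem, G-U pairs allowed. Of 20648 mRNAs, 306 (1.48%) held a match, and 176 (0.852%) held one in a UTR. Among the members, FTH1, FTL and SLC40A1 each had 1 match, in every case in the 5′UTR. Capitals mark the bulged C and the loop, and positions are 1-based on Sscrofa11.1.
FTH1, chr2:9535175-9535204, plus strand: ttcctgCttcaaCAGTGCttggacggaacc
FTL, chr6:54231194-54231223, plus strand: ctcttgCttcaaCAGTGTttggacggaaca
SLC40A1, chr15:94161659-94161688, minus strand: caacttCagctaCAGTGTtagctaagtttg
The loops of FTL and SLC40A1 are identical, CAGTGT, and that of FTH1 ends in C. No match was found in the RefSeq mRNAs of TFRC, SLC11A2, ACO1, IREB2, HMOX1 and ABCB8, which says only that these letters are not in those models. The TFRC model is 2383 bases long, and how much of its 3′UTR it covers was not examined. Its level per kilobase below rests on the same length. No lack of an element in TFRC can be read from this search.

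In the deposits the sample names disagree. Every column of the expression table matched 1 count file (Spearman correlation 1.0, the highest with any other file 0.992), and 8 of 19 columns name another group than the file. In the table the names Control and RemoLV stand on each other's 6 libraries, and a DOX and a MYO library have changed places. Groups are given here by the labels of the count files (file labels), and values by the names in the table (table names) are added for the members, the list counts and the wider genes compared with Control. Between RemoLV and Control the table names turn every sign, since the same 6 libraries change places. Only the comparison of DOX and MYO together with Hyper uses the same libraries under both. The libraries labelled RemoLV had 57.96 ± 50.78 CPM (SD, n = 3) of MYL2, the ventricular myosin light chain, against at least 8975 CPM in each of the other libraries. They had 7169 ± 1062 CPM (SD, n = 3) of MYL4, the atrial light chain, against at most 21.9 CPM elsewhere, and the label of left ventricular tissue therefore goes against their defining markers. DDX3Y, a Y-chromosome gene, stood at 111.5 ± 23.66 CPM (SD, n = 10) in DOX and MYO, although the labels call all pigs female, and had at most 2 counts in each of the other 9 libraries. By this marker, sex also cannot be told apart from drug where DOX or MYO is compared with Control or Hyper. Library totals ran from 9527710 to 20370209 counts, with a median of 14527230. CPM are counts relative to the library size after TMM scaling.

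By file label, 2 of the 7 measured members passed an adjusted p of 0.05 in DOX vs. Control (1 higher, 1 lower), where 42.1% of the 13552 genes tested did. In MYO vs. Control 3 of 7 passed (1 higher, 2 lower; 42.4% of all genes), and in RemoLV vs. Control 4 of 7 passed (2 higher, 2 lower; 47.2% of all genes). In RemoLV vs. Hyper 2 of 7 passed (35.6% of all genes), and in DOX and MYO vs. Hyper 2 of 7 passed (32.6% of all genes). With 7 genes, these shares lie near the background and say nothing of iron genes as a class. In Hyper vs. Control and in DOX vs. MYO 0 members and 0% of all genes passed the edgeR test, while 3 and 0 members had an unadjusted p under 0.05, as did 17.8% and 7.08% of all genes. Without Control library 2, 2538 genes passed in Hyper vs. Control, 1 higher and 2 lower members among them. DESeq2 called 311 and 2 genes in these comparisons. No member reached an absolute log2 fold change of 2 together with an adjusted p of 0.05, which 2.75% of all genes did in DOX, 2.47% in MYO and 6.35% in RemoLV vs. Control, 4.93% in RemoLV vs. Hyper and 1.75% in DOX and MYO vs. Hyper. Without Control library 2, SLC40A1 did so in RemoLV vs. Control (2.49). By table names 4 members passed in DOX (2 higher, 2 lower; 29.6% of all genes), 3 in MYO (2 higher, 1 lower; 29.2%), 4 in RemoLV (2 higher, 2 lower; 47.2%) and 2 in Hyper (1 higher, 1 lower; 35.8%). The 7 members were kept by the filter on low counts, and the 3 Control libraries are shared by 4 of the comparisons.

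**Figure D1:**
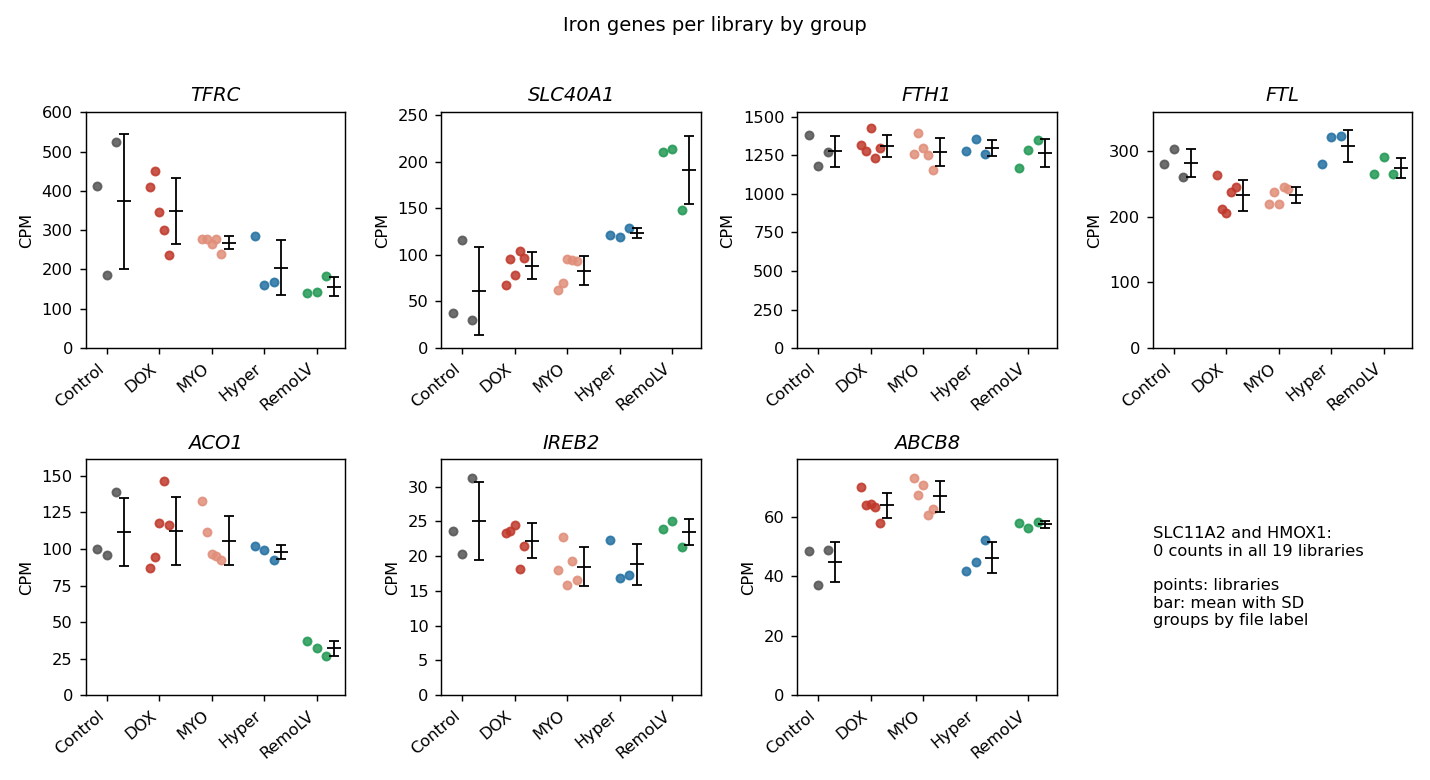
CPM (vertical axes, from 0) of the 7 measured members in each of the 19 libraries, by file label; points are libraries and bars show the group mean with SD. FTH1 lies between 1151 and 1428 CPM in all libraries, ACO1 is at 37.2 CPM or below in the RemoLV libraries alone, and ABCB8 is at 57.7 CPM or above in all DOX and MYO libraries.

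The storage genes behaved differently from each other: FTH1 had nearly the same level everywhere, and FTL was lower in DOX and MYO. FTH1 (ENSSSCG00000014540, chr2:9535051-9537979) spanned 1151 to 1428 CPM over the 19 libraries, a 1.24-fold range. Group means were 1276 ± 100.6 in Control (SD, n = 3), 1310 ± 72.89 in DOX (SD, n = 5), 1271 ± 88.48 in MYO (SD, n = 5), 1296 ± 51.52 in Hyper (SD, n = 3) and 1266 ± 91.08 CPM in RemoLV (SD, n = 3). All groups overlap. Against Control, the 95% intervals of its log2 fold change ran from -0.15 to 0.23 in DOX, from -0.19 to 0.18 in MYO, from -0.22 to 0.20 in RemoLV and from -0.19 to 0.23 in Hyper. With library totals only the value in DOX was 0.47, of which 0.45 was the median of all genes. Per kilobase of mRNA, FTH1 was the most abundant member (1285 CPM per kb over all libraries), followed by FTL (276.7), TFRC (116.7), SLC40A1 (29.82), ACO1 (26.52), ABCB8 (13.8) and IREB2 (6.148 CPM per kb). SLC40A1 and ACO1 changed places between groups, with ACO1 above SLC40A1 in Control (31.0 and 17.47), DOX (31.2 and 25.27) and MYO (29.34 and 23.73) and below it in Hyper (27.19 and 35.15) and RemoLV (8.877 and 54.56 CPM per kb). In RemoLV ABCB8 (13.72 CPM per kb) also lay above ACO1. Ferritin genes have near-identical copies in mammalian genomes, and reads shared with such copies may be missing from these counts.

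FTL (ENSSSCG00000003153, chr6:54231121-54232756) had 263, 211, 205, 237 and 245 CPM in DOX libraries 1 to 5 and 220, 237, 219, 245 and 242 CPM in MYO libraries 1 to 5. Control libraries 1 to 3 had 281, 302 and 260 CPM. All MYO libraries lie below all Control libraries, which 18.7% of all genes do, whereas DOX library 1 overlaps with Control. The log2 fold change was -0.28 in DOX (SE 0.094, adjusted p = 0.0258) and -0.27 in MYO (SE 0.094, adjusted p = 0.0258, edgeR). These are small differences, to 0.827-fold of Control in both drug groups. Such a difference in tissue RNA does not tell fewer cells that express a gene from less RNA per cell. Without Control library 2 the adjusted p rose to 0.0916 in DOX and 0.0921 in MYO. The call in DOX was also lost without DOX library 2 (0.0613), DOX library 3 (0.0635) or Control library 1 (0.0606), and that in MYO without MYO library 1 (0.0534), MYO library 3 (0.0559) or Control library 1 (0.0601). With library totals only, a scaling that moved the median of all genes by 0.416 in DOX and 0.423 in MYO on the log2 scale, the values turned to 0.13 and 0.14, while relative to that median they were -0.31 and -0.30, and with only the DOX and Control libraries in the fit the adjusted p was 0.0993.

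In Hyper, FTL stood at 279, 321 and 323 CPM, above all 10 DOX and MYO libraries, which had 232.4 ± 17.88 CPM (SD, n = 10). For this comparison, which does not depend on the naming, the log2 fold change was -0.40 (SE 0.083, adjusted p = 0.00136, edgeR), and 11% of all genes lay lower without overlap. It stayed past the threshold without any 1 library (log2 fold change between -0.47 and -0.37), and was -0.14 (adjusted p = 0.37) with library totals only, which is -0.43 relative to the median of all genes under that scaling and the same under TMM. RemoLV libraries 1 to 3 had 265, 291 and 265 CPM, within the range of Control and Hyper together, and their log2 fold change against Control was -0.04 (95% interval from -0.26 to 0.18). The order of group means was Hyper (307.5), Control (281.1), RemoLV (273.3), MYO (232.5) and DOX (232.3), and neighbours in it overlap except for RemoLV above MYO. The share of all genes for that pair was not computed. By table names, FTL was lower in DOX with -0.27 (adjusted p = 0.0366), and in MYO the value of -0.20 missed the threshold (adjusted p = 0.111, edgeR).

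ABCB8 (ENSSSCG00000027986, chr18:6178550-6196966), the mitochondrial transporter, was higher in both drug groups than in Control and in Hyper. DOX libraries 1 to 5 had 69.9, 63.8, 64.2, 63.3 and 57.7 CPM, and MYO libraries 1 to 5 had 73.0, 67.3, 70.6, 60.4 and 62.7 CPM. Control libraries 1 to 3 had 48.4, 37.1 and 48.7 CPM, and Hyper libraries 1 to 3 had 41.8, 44.7 and 52.1 CPM. Each of the 10 drug-treated libraries was above each of these 6. ABCB8 was 1.43-fold higher in DOX than in Control (log2 fold change 0.51, SE 0.105, adjusted p = 9.62e-04), where 17.2% of all genes lay higher without overlap. In MYO it was 1.50-fold higher (0.58, SE 0.106, adjusted p = 3.62e-04, edgeR; 19% of all genes higher without overlap). Against Hyper, the 10 libraries (65.29 ± 4.802 CPM, SD, n = 10) were 1.41-fold higher (0.50, SE 0.096, adjusted p = 8.06e-04), as 9.98% of all genes were without overlap, and no left-out library ended any of these 3 calls.

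The RemoLV libraries had 57.9, 56.2 and 58.3 CPM of ABCB8, above Control (as 26.4% of all genes were without overlap) and below all MYO libraries, and overlapped with DOX library 5. The share of all genes lower in RemoLV than in MYO without overlap was not computed. Against Control the log2 fold change was 0.36 (SE 0.116, adjusted p = 0.016), which rose to an adjusted p of 0.0834 without Control library 2 and of 0.064 with only these groups in the fit. Against Hyper it was 0.31 (SE 0.116, adjusted p = 0.0423), higher without overlap as in 24.2% of all genes, and this call was lost in 9 of the 19 fits without 1 library, with an adjusted p of up to 0.158 without Hyper library 1, as well as without the filter on low counts (0.0904) and with only these groups in the fit (0.0898, edgeR). By table names, in which these libraries are the Control, the values in DOX (0.22, adjusted p = 0.123) and MYO (0.15, adjusted p = 0.297) missed the threshold, so that the difference of the drug groups from Control rests on the file labels and that from Hyper does not. Fibroblast markers (8 genes) summed to 4652 to 7227 CPM in DOX and MYO, against 2133 to 3519 in Control, 1592 to 3904 in Hyper and 10990 to 12610 CPM in RemoLV. Atrial markers (6 measured) summed to 776.6 to 2446 CPM in DOX and MYO, above 128 to 178.5 in Control and overlapping with 210 to 1280 CPM in Hyper. Most of the sum in DOX and MYO was MYL7, at 736.5 to 2379 CPM. Against Control, 2 of the 6 atrial and 3 of the 8 fibroblast markers were higher in each drug group. Of all genes, 21% in DOX and 20.7% in MYO were higher. In MYO 1 fibroblast marker was lower, as were 21.7% of all genes. The part of either marker list in ABCB8 and FTL was not tested.

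**Figure D2:**
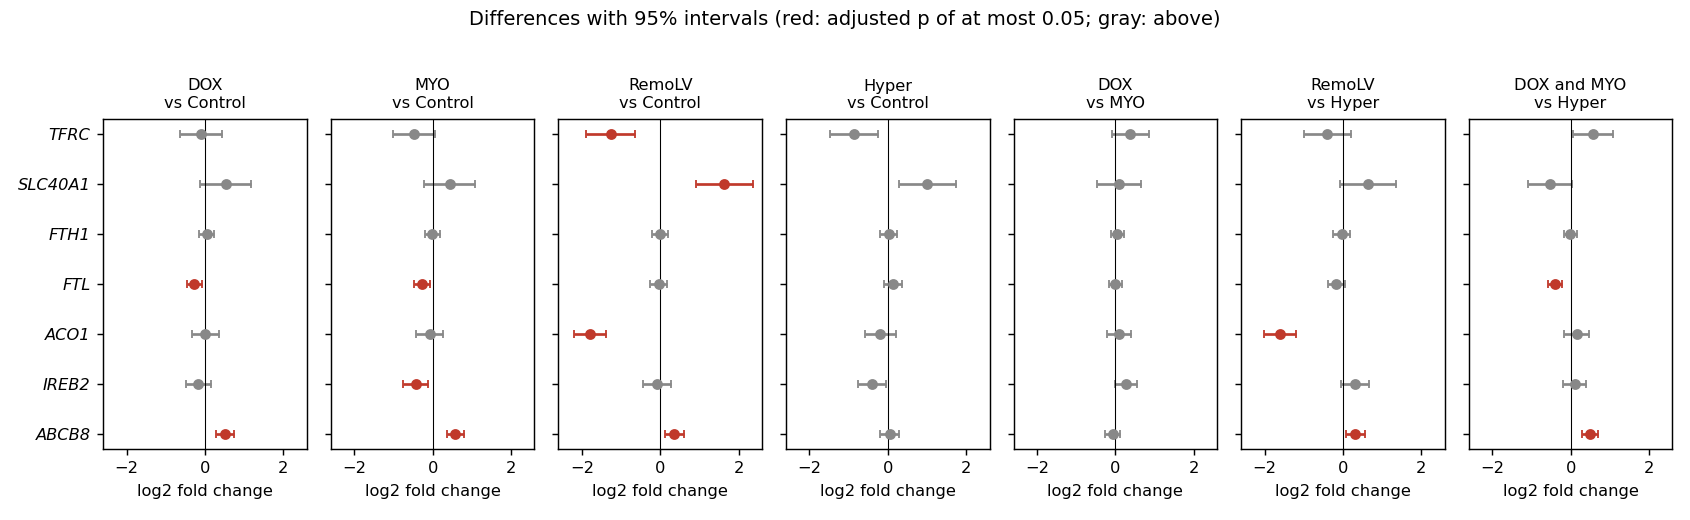
Log2 fold changes (horizontal axes) of the 7 measured members with 95% intervals in 7 comparisons by file label; red marks an adjusted p of at most 0.05 in the edgeR test. The intervals of FTH1 lie around 0 in all panels, those of ACO1 leave 0 only where RemoLV is compared, and FTL and ABCB8 are red with opposite signs in the panels of the drugs against Control and Hyper.

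The gene of uptake was lower and the gene of export higher in RemoLV than in Control, and neither passed the test in DOX, MYO or Hyper vs. Control. TFRC (ENSSSCG00000011848, chr13:133976765-133997554) had 412, 187 and 523 CPM in Control libraries 1 to 3 and 140, 143 and 183 CPM in RemoLV libraries 1 to 3. All RemoLV libraries lie below Control, as 25.7% of all genes do. Its level in RemoLV was 0.416-fold of that in Control (log2 fold change -1.27, SE 0.295, adjusted p = 0.00189, edgeR). DOX libraries 1 to 5 had 409, 450, 347, 299 and 238 CPM, MYO libraries 1 to 5 had 278, 277, 266, 279 and 239 CPM, and Hyper libraries 1 to 3 had 285, 160 and 169 CPM. These 3 groups overlap with Control, and MYO varied least (SD 16.73 CPM) and Control most (SD 171.6 CPM). The order of means was Control (374), DOX (348.5), MYO (267.6), Hyper (204.6) and RemoLV (155.6 CPM), with overlap between all neighbours.

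SLC40A1 (ENSSSCG00000027157, chr15:94140635-94161793) had 211, 214 and 149 CPM in RemoLV libraries 1 to 3 and 38.0, 116 and 29.7 CPM in Control libraries 1 to 3. All RemoLV libraries lie above Control, as 26.4% of all genes do. Its level was 3.12-fold higher (log2 fold change 1.64, SE 0.349, adjusted p = 9.17e-04, edgeR). DOX libraries 1 to 5 had 68.2, 95.2, 78.3, 104 and 96.7 CPM, MYO libraries 1 to 5 had 62.3, 69.5, 96.1, 94.7 and 93.2 CPM, and Hyper libraries 1 to 3 had 121, 119 and 129 CPM. The Hyper libraries lie just above Control library 2, without overlap as in 5.64% of all genes. They lie above all drug-treated libraries, as 11% of all genes do, and the drug groups overlap with Control. The order of means was the reverse of that of TFRC except for DOX and MYO: RemoLV (191.1), Hyper (123.1), DOX (88.52), MYO (83.13) and Control (61.18 CPM). RemoLV lies above Hyper without overlap, as 24.2% of all genes do, and Hyper lies above both drug groups as given above. The tests of these pairs missed the threshold: RemoLV vs. Hyper gave 0.63 (adjusted p = 0.159, and 0.013 without Control library 2 or 0.0134 with only these groups in the fit), and DOX and MYO vs. Hyper gave -0.52 (adjusted p = 0.141, edgeR).

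Control library 2 moved the other comparisons of TFRC and SLC40A1 with Control. Its TFRC level was the lowest and its SLC40A1 level the highest of the 3. It also had 35.1 CPM of HBB, the beta chain of haemoglobin, against 336.7 and 325.3 CPM in Control libraries 1 and 3. With all libraries, SLC40A1 had log2 fold changes of 0.53 in DOX (adjusted p = 0.179), 0.44 in MYO (adjusted p = 0.266) and 1.01 in Hyper (adjusted p = 0.168), and without Control library 2 they were 1.39 (7.5e-05), 1.29 (1.2e-04) and 1.86 (1.13e-04). TFRC went from -0.48 (adjusted p = 0.138) to -0.81 (0.00617) in MYO and from -0.87 (adjusted p = 0.165) to -1.20 (0.00354) in Hyper. TFRC in Hyper also passed without Hyper library 1 (-1.19, adjusted p = 0.0395). In DOX it passed without no library, and its value of -0.10 was -0.43 without Control library 2 and 0.22 without Control library 3. The RemoLV values stayed past the threshold without any 1 library, between -1.60 and -0.95 for TFRC and between 1.31 and 2.49 for SLC40A1 (edgeR), both ends given by the fits without Control library 2 or 3.

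Against Hyper, which is independent of the naming, TFRC was 0.58 higher in DOX and MYO on the log2 scale (95% interval from 0.07 to 1.09) with an adjusted p of 0.0756, and it passed without DOX library 5 (0.63, adjusted p = 0.0469), Hyper library 1 (0.89, adjusted p = 0.0322) or Control library 2 (0.58, adjusted p = 0.0211, edgeR). It also passed in DESeq2 (0.0485), and in edgeR with only these groups in the fit (0.0306) or with a replicate block (0.0446). With library totals only it passed as well (0.00625, edgeR), under a scaling that moved the median of all genes by 0.26. SLC40A1 passed in this comparison without Control library 2 (-0.52, adjusted p = 0.0105), which is in neither group and enters through the shared spread, and with only these groups in the fit (0.0117, edgeR). With table names, in which RemoLV and Control change places, the signs in RemoLV turned (TFRC 1.27, SLC40A1 -1.64). TFRC was then higher and SLC40A1 lower than Control in DOX (1.20 and -1.23, adjusted p = 0.00223 and 0.00451) and MYO (0.74 and -1.09, adjusted p = 0.0379 and 0.0102, edgeR).

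Red blood cell precursors use TFRC and macrophages use SLC40A1, so their markers are given beside these genes. Erythroid markers (8 of 9 listed genes with an identifier, HBB among them) summed to 37.29 to 355.2 CPM in Control, 8.823 to 113.3 in DOX, 13.26 to 198.8 in MYO, 21.92 to 122.3 in Hyper and 11.68 to 43 CPM in RemoLV. Of the 4 that could be tested, 3 were lower in RemoLV than in Control, as were 4 in DOX and 1 in MYO, while Hyper had 0. The 13 macrophage markers summed to 279.3 to 366.9 CPM in Control, 282 to 586 in DOX, 241.6 to 369.9 in MYO, 211.1 to 320.9 in Hyper and 346.2 to 368.8 CPM in RemoLV. Of these 13 genes, 7 passed in RemoLV vs. Control (5 higher), 9 in DOX vs. Control (8 higher), 3 in MYO vs. Control (2 higher) and 0 in Hyper vs. Control, where 47.2%, 42.4% and 0% of all genes passed in RemoLV, MYO and Hyper and 42.1% in DOX. By table names 1 was higher in DOX and 2 were lower in MYO, while of the erythroid markers 0 passed in either. The higher ones in RemoLV included CD68 (log2 fold change 1.45, adjusted p = 0.00108), CSF1R (0.85, 0.0143), C1QA (0.87, 0.0204) and C1QB (0.96, 0.0104, edgeR), the same direction as SLC40A1. CD163, the macrophage scavenger receptor for haemoglobin, had 110.9 ± 24.64 CPM in Control (SD, n = 3) and 43.32 ± 2.813 CPM in RemoLV (SD, n = 3), the opposite direction. In RemoLV vs. Control the 6 measured atrial markers were higher (median log2 fold change 4.08), the 6 ventricular ones lower (-5.45) and 5 of 8 fibroblast markers higher (median of the 8, 1.37). The part of any of these cell types in the levels of TFRC and SLC40A1 was not tested.

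**Figure D3:**
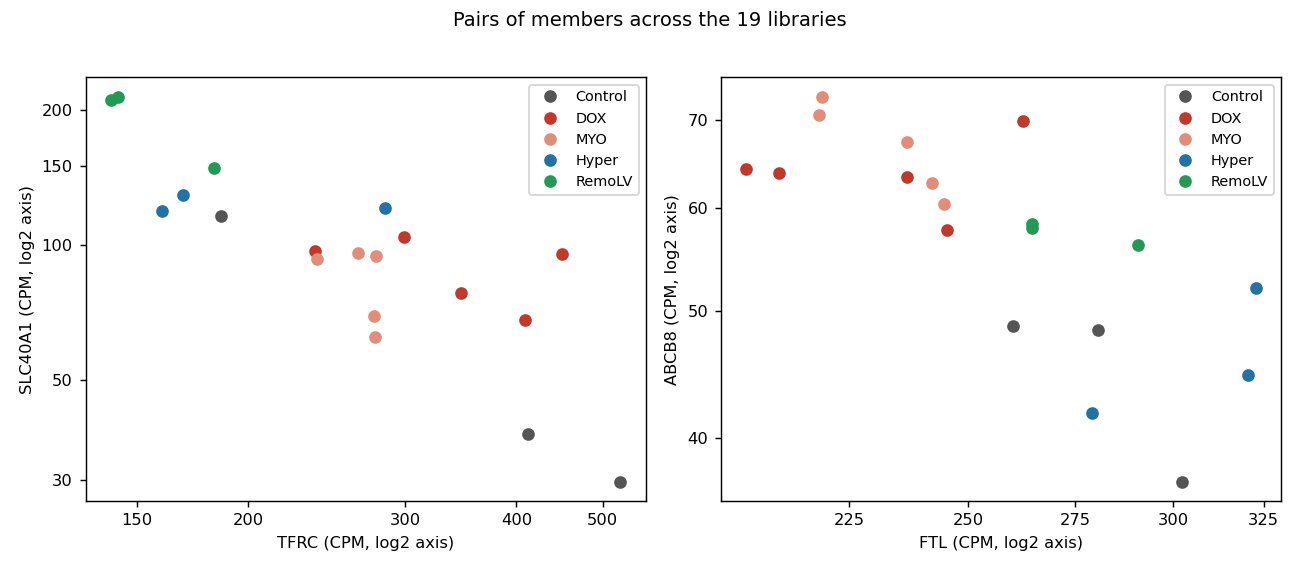
Left, SLC40A1 against TFRC, and right, ABCB8 against FTL, in CPM on log2 axes, with 1 point for each of the 19 libraries coloured by file label. Control libraries 1 and 3 lie at the lower right of the left panel and RemoLV at the upper left, with Control library 2 beside Hyper; in the right panel the DOX and MYO libraries lie above all others in ABCB8 except for RemoLV, which overlaps with 1 DOX library.

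Over the 19 libraries the log2 CPM of TFRC and SLC40A1 had a Pearson correlation of -0.84, the strongest among the 21 pairs of members, followed by FTL with ABCB8 (-0.75), SLC40A1 with ACO1 (-0.67) and TFRC with ACO1 (0.61). These are descriptions, since the libraries share groups, origin and scaling. Within a library the ratio of TFRC to SLC40A1 was 10.8, 1.61 and 17.6 in Control libraries 1 to 3, from 2.46 to 6.00 in DOX, from 2.57 to 4.46 in MYO, from 1.31 to 2.35 in Hyper and from 0.666 to 1.23 in RemoLV. The ratio in RemoLV lies below that of all other libraries. The ratio of FTH1 to FTL was 3.90 to 4.91 in Control, 5.02 to 6.95 in DOX, 4.75 to 5.93 in MYO, 3.90 to 4.57 in Hyper and 4.41 to 5.09 in RemoLV, so that all DOX libraries lie above Control and Hyper, and all MYO libraries above Hyper. Ratios of this kind need no scaling between libraries, and no share over all genes was computed for them.

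**Figure D4:**
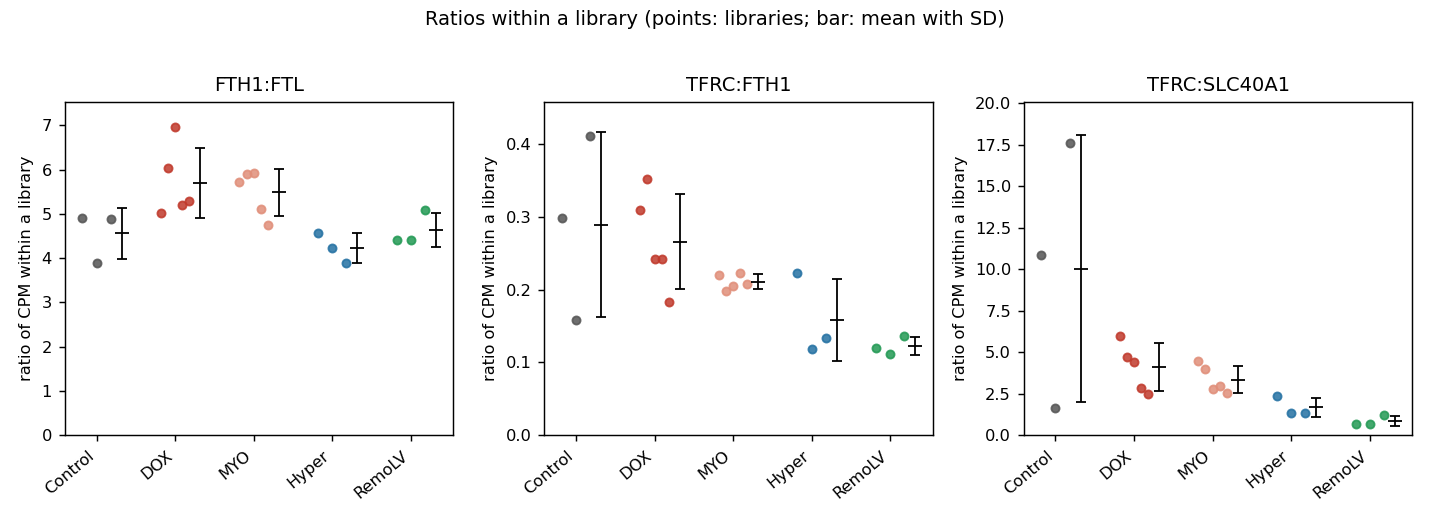
Ratios of CPM within each library (vertical axes, from 0), by file label; points are libraries and bars show the mean with SD. FTH1:FTL is between 5.02 and 6.95 in DOX and at most 4.91 in Control and 4.57 in Hyper, and TFRC:SLC40A1 is at most 1.23 in RemoLV and 17.6 in 1 Control library.

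Of the iron sensors, ACO1 was lower in the RemoLV libraries alone. ACO1 (ENSSSCG00000023807, chr10:33937833-34001895) encodes a protein that is cytosolic aconitase when it carries an iron-sulfur cluster and an mRNA-binding protein when it does not. RemoLV libraries 1 to 3 had 37.2, 32.2 and 26.7 CPM, against 100.3, 96.03 and 139 CPM in Control libraries 1 to 3 and 102, 99.1 and 92.7 CPM in Hyper libraries 1 to 3. DOX libraries 1 to 5 had 87.1, 94.7, 118, 146 and 116 CPM, and MYO libraries 1 to 5 had 133, 112, 96.5, 95.1 and 92.5 CPM. The 16 libraries of the other groups overlap with one another and all lie above 87 CPM, while the highest RemoLV library had 37.2 CPM. The level in RemoLV was 0.287-fold of Control (log2 fold change -1.80, SE 0.194, adjusted p = 1.57e-06) and 0.327-fold of Hyper (-1.61, SE 0.194, adjusted p = 5.77e-06, edgeR), and 25.7% and 23.8% of all genes lay lower without overlap there. Without any 1 library the values stayed between -1.93 and -1.62 and between -1.74 and -1.50.

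These are the libraries with little MYL2, and whether the low ACO1 belongs to the remote myocardium or to the tissue sampled cannot be told apart. The 6 ventricular markers summed to 25020 to 29130 CPM in RemoLV and to at least 45000 CPM in each other library, and all 6 were lower than in Control. The 6 measured atrial markers were all higher, with sums of 9602 to 12880 CPM in RemoLV and at most 2446 CPM elsewhere. With table names ACO1 was 1.85 higher than Control in DOX (adjusted p = 4.3e-07), 1.68 in MYO (1.33e-06), 1.80 in RemoLV (1.06e-06) and 1.61 in Hyper (4.11e-06) on the log2 scale (edgeR), since these 3 libraries are then the Control. Between the drug groups and Hyper, under either naming, ACO1 passed no test (0.15, 95% interval from -0.17 to 0.47 by file label).

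IREB2 (ENSSSCG00000001756, chr7:47481539-47529199), the sensor that is degraded when iron is ample, had the lowest level per kilobase of the measured members. MYO libraries 1 to 5 had 18.1, 22.8, 15.8, 19.3 and 16.6 CPM, and Control libraries 1 to 3 had 23.7, 20.3 and 31.2 CPM. DOX libraries 1 to 5 had 23.4, 23.7, 24.5, 18.2 and 21.4 CPM, Hyper libraries 1 to 3 had 22.3, 16.9 and 17.4 CPM, and RemoLV libraries 1 to 3 had 23.9, 25.1 and 21.4 CPM. The groups overlap, MYO library 2 with Control included. IREB2 was 0.740-fold of Control in MYO (log2 fold change -0.44, SE 0.151, adjusted p = 0.0275, edgeR), and the adjusted p rose to 0.258 without Control library 3. The call was also lost without MYO library 3 (0.0639) or 5 (0.0587), as well as with only MYO and Control in the fit (0.0552) and with a replicate block (-0.37, adjusted p = 0.117). With library totals only the value was 0.01 (adjusted p = 0.944), which relative to the median of all genes is -0.43 against -0.45 under TMM, and by table names the value was -0.29 (adjusted p = 0.19). In Hyper the log2 fold change was -0.41 (adjusted p = 0.228), and without Control library 2 it was -0.54 (adjusted p = 0.0389, edgeR).

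DOX and MYO contain the same anthracycline at the same dose, schedule and follow-up, in free form and enclosed in liposomes. None of the 7 measured members differed between them past the threshold (7 differences, p adjusted over all 13552 genes). The closest to it was IREB2, 0.26 higher in DOX on the log2 scale (95% interval from -0.02 to 0.54, adjusted p = 0.717). The intervals were narrow for FTH1 (from -0.12 to 0.21), FTL (from -0.17 to 0.17) and ABCB8 (from -0.25 to 0.12), and wider for ACO1 (from -0.22 to 0.39), TFRC (from -0.09 to 0.85) and SLC40A1 (from -0.46 to 0.65), so that for TFRC a 1.81-fold higher level in DOX is within the interval. By table names TFRC was 0.46 higher in DOX (adjusted p = 0.616, edgeR).

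SLC11A2 (ENSSSCG00000034039) and HMOX1 (ENSSSCG00000039745) had 0 counts in every library. In the RefSeq annotation of Sscrofa11.1 both genes lie on scaffolds not placed on a chromosome. Of 146 genes on such scaffolds that were matched by symbol, 145 (99.3%) had 0 counts in all 19 libraries, against 481 of 14825 genes (3.24%) on placed chromosomes. These 0 counts are therefore shared by nearly all genes of such scaffolds and give no level for either gene. HMOX2, the other haem oxygenase, was measured and is counted below with the genes of haem.

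The wider iron genes, 72 in 6 lists, had 63 members that passed the filter. In DOX 9 of 63 were higher and 22 lower than in Control (median log2 fold change -0.23, all genes 0.03), where 21% of all genes were higher and 21.1% lower. In MYO 8 were higher and 21 lower (median -0.19, all genes 0.02; 20.7% and 21.7% of all genes). In RemoLV 13 were higher and 25 lower (median -0.22, all genes 0.02; 23.1% and 24% of all genes). In DOX and MYO vs. Hyper 5 were higher and 17 lower (median -0.10, all genes 0.03; 15.8% and 16.9% of all genes), and in RemoLV vs. Hyper 13 and 23 (median -0.16, all genes 0.01; 17% and 18.6% of all genes). The number called in either direction, 31 of 63 in DOX and 29 in MYO, lies near the background of 42.1% and 42.4%, whereas 38 in RemoLV vs. Control and 36 in RemoLV vs. Hyper are larger shares than the 47.2% and 35.6% of all genes. Without Control library 3 the counts were 3 higher and 14 lower in DOX and 5 higher in MYO, and without Hyper library 1 DOX and MYO vs. Hyper had 3 higher and 10 lower. In Hyper vs. Control and DOX vs. MYO 0 passed in edgeR, with 9 and 2 of 63 at an unadjusted p under 0.05. With table names 15 were higher and 11 lower than Control in DOX, 13 and 11 in MYO, 25 and 13 in RemoLV and 23 and 12 in Hyper, so that more genes were lower than higher against Control by file label alone. With library totals only, more were higher (DOX with 23 higher and 2 lower, MYO with 27 and 5, RemoLV with 22 and 6, and DOX and MYO vs. Hyper with 16 and 5), under a scaling that moved the median of all genes up by 0.416, 0.423, 0.497 and 0.26 in these comparisons. The counts for each list below are read against the shares of all genes given here, and with 5 to 18 genes a list they say nothing of a list as a whole. For DOX and MYO vs. Hyper they were the same under both namings.

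Among genes that handle ferritin and cytosolic iron, 0 of 6 were higher and 4 lower in DOX, 5 lower in MYO, 4 in RemoLV and 4 in DOX and MYO vs. Hyper, where 21.1%, 21.7%, 24% and 16.9% of all genes were lower. By table names this turned, with 2 higher and 1 lower in DOX, 2 and 0 in MYO and 4 and 0 in RemoLV. NCOA4, the receptor that delivers ferritin to the lysosome, had log2 fold changes of -0.51 in DOX (adjusted p = 3.32e-04) and -0.43 in MYO (adjusted p = 0.00123) against Control, and of -0.38 in DOX and MYO vs. Hyper (adjusted p = 0.00176, edgeR). FBXL5, which marks IREB2 for degradation, had -0.56 in DOX and -0.40 in MYO (adjusted p = 0.00123 and 0.0115). By table names NCOA4 had 0.12 in DOX (adjusted p = 0.357) and 0.21 in MYO (adjusted p = 0.103), and FBXL5 had -0.38 (adjusted p = 0.0264) and -0.26 (adjusted p = 0.129, edgeR). NCOA4 and FBXL5 are named here after their values were seen. CISD2, an iron-sulfur protein, fell by 0.70 on the log2 scale in DOX and MYO vs. Hyper (adjusted p = 1.38e-04), from 25.78 ± 1.879 CPM in Hyper (SD, n = 3) to 16.23 ± 2.25 in DOX (SD, n = 5) and 15.53 ± 1.974 CPM in MYO (SD, n = 5).

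Of the 18 genes of mitochondrial iron and iron-sulfur clusters, 2 were higher and 8 lower in DOX, 4 and 5 in MYO, 3 and 9 in RemoLV, and 1 and 5 in DOX and MYO vs. Hyper, so that 10, 9, 12 and 6 were called, against 42.1%, 42.4%, 47.2% and 32.6% of all genes. By table names 6 were higher and 1 lower in DOX, 7 and 1 in MYO and 9 and 3 in RemoLV. NFU1, a carrier of iron-sulfur clusters, had 75.65 ± 14.74 CPM in Hyper (SD, n = 3), 47.11 ± 3.57 in DOX (SD, n = 5) and 48.85 ± 4.177 CPM in MYO (SD, n = 5), a log2 fold change of -0.66 (adjusted p = 8.08e-05, edgeR). ABCB6, another mitochondrial transporter, was 0.72 higher in MYO than in Control on the log2 scale (adjusted p = 0.0171, edgeR). By table names it was lower, at -0.68 (adjusted p = 0.0238, edgeR).

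Of 16 haem genes, 4 were higher and 3 lower in DOX, 4 and 2 in MYO, 4 and 5 in RemoLV, and 3 and 3 in DOX and MYO vs. Hyper, numbers near the background of 42.1%, 42.4%, 47.2% and 32.6% of all genes called. By table names the counts were 3 and 0 in DOX, 3 and 0 in MYO and 5 and 4 in RemoLV. SLC46A1, a carrier of folate and haem, was 1.71 higher in DOX (adjusted p = 1.58e-04), 1.69 in MYO (1.72e-04) and 1.68 in RemoLV (2.28e-04) than in Control on the log2 scale, and 1.12 higher in DOX and MYO than in Hyper (adjusted p = 0.00252, edgeR). Its level was low, 1.976 ± 0.4427 CPM in Control (SD, n = 3) and 6.526 ± 1.342 CPM in DOX (SD, n = 5). By table names the drug groups had -0.14 and 0.17 against Control (adjusted p = 0.691 and 0.633, edgeR), so that the difference from Hyper alone is independent of the naming. FLVCR2 was 2.56 higher in DOX and MYO than in Hyper (adjusted p = 1.12e-04), on 2 to 5 counts in each Hyper library and at least 16 in each of the others. BACH1, a repressor of HMOX1 and the ferritin genes that haem releases from DNA, fell by 0.93 on the log2 scale in DOX (adjusted p = 0.00286), by 1.01 in MYO (0.00157) and by 1.15 in RemoLV (0.00126) against Control. By table names BACH1 had 0.17 in DOX (adjusted p = 0.617) and 0.21 in MYO (adjusted p = 0.541, edgeR), and its value of -0.28 in DOX and MYO vs. Hyper missed the threshold (adjusted p = 0.301). ALAS1, the first enzyme of haem synthesis, fell by 1.10 in RemoLV (adjusted p = 3e-05), and ALAD, the next enzyme, by 1.30 in RemoLV vs. Hyper (adjusted p = 3.85e-05, edgeR).

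Among 7 measured genes of uptake and reduction, 1 was higher and 2 lower in DOX, 0 and 3 in MYO, 3 and 1 in RemoLV, and 0 and 1 in DOX and MYO vs. Hyper. In DOX and MYO the 3 called of 7 are at the background of 42.1% and 42.4% of all genes. By table names 1 was higher and 3 lower in each of DOX, MYO and RemoLV. SCARA5, a ferritin receptor, had 42.45 ± 12.53 CPM in RemoLV (SD, n = 3) against 4.556 ± 2.963 CPM in Control (SD, n = 3) (log2 fold change 3.20, adjusted p = 2.09e-05), and STEAP2, a metalloreductase, 10.2 ± 1.08 against 0.7761 ± 0.311 CPM (3.69, adjusted p = 3.99e-05, edgeR). STEAP2 rests on 6 to 17 counts in each Control library and 5 to 15 in each Hyper library. Both were also higher in RemoLV than in Hyper (3.38 and 3.68, adjusted p = 1.76e-05 and 5.59e-05). STEAP3, which reduces iron in the endosome, was 0.48 higher in DOX than in Control (adjusted p = 0.0232), and 0.55 by table names (adjusted p = 0.0169, edgeR). Its level in DOX, 47.01 ± 3.742 CPM (SD, n = 5), overlapped with 42.31 ± 6.241 CPM in Hyper (SD, n = 3) and 42.7 ± 8.743 CPM in MYO (SD, n = 5).

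Of 5 measured genes of export and hepcidin control, 2 were higher and 2 lower in DOX, 0 and 2 in MYO, 3 and 0 in RemoLV, and 1 and 1 in DOX and MYO vs. Hyper, where 42.1%, 42.4%, 47.2% and 32.6% of all genes were called in either direction. By table names 1 was higher and 3 lower in DOX, 0 and 4 in MYO and 0 and 3 in RemoLV. HJV (hemojuvelin), a co-receptor that raises hepcidin in liver and is also made in muscle, had 35.09 ± 14.47 CPM in Control (SD, n = 3) against 6.078 ± 3.091 in DOX (SD, n = 5) and 6.069 ± 5.471 CPM in MYO (SD, n = 5), with log2 fold changes of -2.52 and -2.53 (adjusted p = 0.00291 and 0.00285, edgeR). By table names they were -0.75 (adjusted p = 0.316) and -1.83 (adjusted p = 0.0215). CP (ceruloplasmin), the oxidase that works with ferroportin, had 1 count in each MYO library and 2 to 19 in each Control library, too few for a fold. It had 14 to 70 counts in the RemoLV libraries and at most 2 in each Hyper library, so that RemoLV was at least 12.3-fold higher (floor of 3 counts per library). BMP6, a ligand upstream of hepcidin, was 0.67 higher in DOX and MYO than in Hyper (adjusted p = 0.0044). Of 11 genes of lipid peroxidation and its defence, 0 were higher and 3 lower in DOX, 0 and 4 in MYO, 0 and 6 in RemoLV, and 0 and 3 in DOX and MYO vs. Hyper, where 21.1%, 21.7%, 24% and 16.9% of all genes were lower. By table names they were 2 and 3 in DOX, 0 and 3 in MYO and 6 and 0 in RemoLV. ACSL4, which makes peroxidisable phospholipids, fell by 0.74 on the log2 scale in DOX (adjusted p = 7.8e-04) and by 1.01 by table names (6.72e-05), and NQO1, a quinone reductase, by 0.76 in DOX and MYO vs. Hyper (adjusted p = 0.00901) and by 1.24 in RemoLV vs. Hyper (adjusted p = 0.00173, edgeR).

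**Figure D5:**
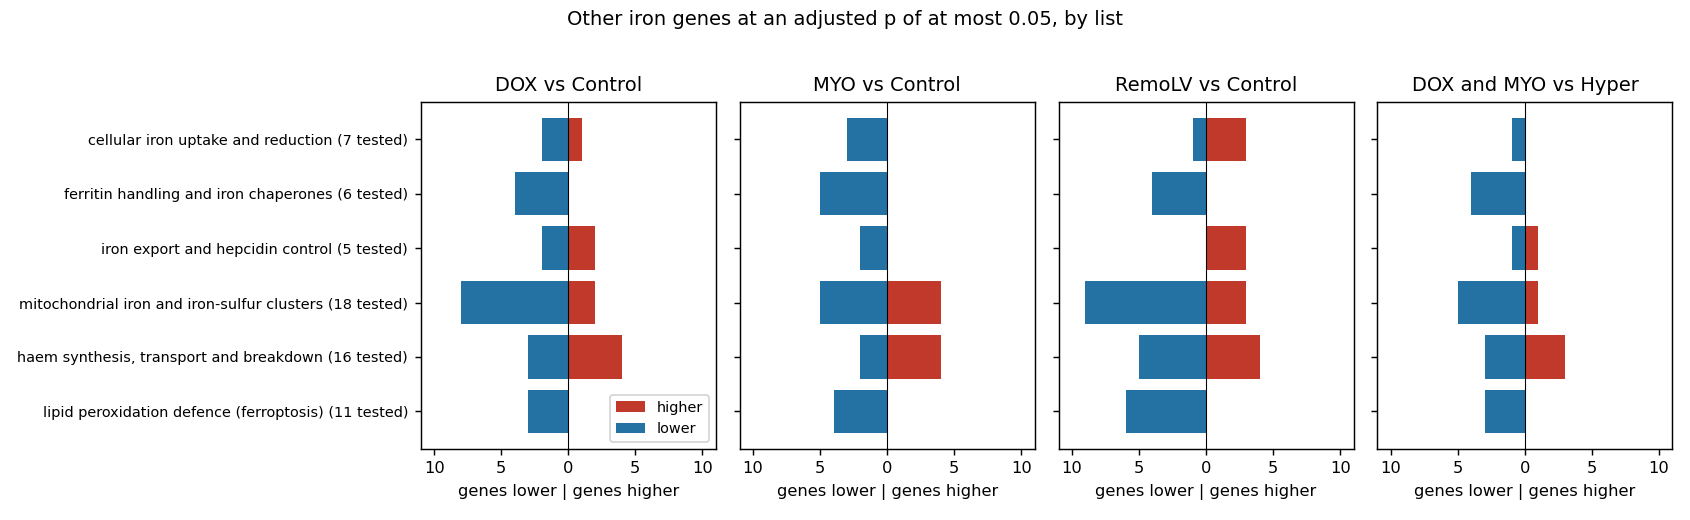
Number of genes in 6 wider iron lists with an adjusted p of at most 0.05 (edgeR), higher to the right in red and lower to the left in blue, in 4 comparisons by file label. In the list of ferritin handling all 4 or 5 called genes are lower in each panel, and in the haem list 4 are higher and 3 lower in DOX vs. Control.

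The genes whose log2 CPM followed each member most closely over the 19 libraries were SLC8A1 (Pearson r 0.89) and TMC7 (0.89) for TFRC, SUMF1 (0.93) and USP54 (0.93) for SLC40A1, PHACTR1 (0.96) and ANKRD33B (0.96) for ACO1, and LAMP1 (0.94) and CTDNEP1 (0.94) for ABCB8. For FTL they were CPPED1 (0.91) and RARS1 (0.87), and for IREB2 SLF2 (0.90) and HEATR5A (0.88). For FTH1, the member with the smallest range, they were HAP1 (0.73) and PLEK2 (0.69), the lowest values of likeness among the members. These values describe likeness over libraries that share groups and origin.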

How the data were processed

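The authors aligned the read pairs of poly(A)-selected, stranded libraries to Sscrofa11.1 with STAR and counted them on Ensembl genes with HTSeq 0.11.1, and they deposited whole-number counts without normalization, 1 file per pig. The deposited table of the authors holds log2-like expression values, used here only to find members and match names, and its log2 fold changes and adjusted p-values of each group against Control, which are the authors' DESeq2 comparisons, were not used. Members and gene lists were chosen with earlier results of these data known.

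Counts were scaled with TMM, filtered with filterByExpr and fitted over all 5 groups with the quasi-likelihood test of edgeR 4.0.16 (R 4.3.3, limma 3.58.1), with Benjamini-Hochberg adjustment over 13552 genes, a threshold of 0.05 and 95% intervals. P-values weigh a difference between groups against the spread between pigs within groups. That spread does not cover origin of the libraries or follow-up time. Correlations used log2 CPM with a prior count of 2. Groups followed the count files' labels. Simulated counts with 200 altered genes served as a test of these steps in DOX vs. Control. Of 50 genes each with a true log2 fold change of -1 and 1, 60% and 52% were called. At -2 and 2 these shares were 96% and 98%. Far fewer genes were altered there than were called in the data. Named beyond the members were, per comparison, up to 3 wider genes in each direction, taken by size of log2 fold change from those called and without overlap, the 2 genes most correlated with each member, and defining markers; 1 gene that this rule names is not reported here. Alternatives were the table names, RLE size factors, library totals only, no filter, at least 10 counts in every sample, DESeq2 1.42.0, fits of the compared groups alone, a replicate block, and leaving out each library. Bounds use a floor of 3 counts and cover counting error only. Tables and figures were made with Python 3.11.15, numpy 2.4.6, pandas 2.3.3 and matplotlib 3.10.9.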

Additional observations from a re-analysis of the deposited data

Results flagged for a closer look

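ACO1 and ABCB8 differed between RemoLV and Hyper in a direct test, which is the difference between their effects against the same Control libraries. For ACO1 the log2 fold change of RemoLV vs. Hyper was -1.61 (adjusted p = 5.77e-06), and it came from 31.99 ± 5.254 CPM in RemoLV (SD, n = 3) against 97.98 ± 4.789 CPM in Hyper (SD, n = 3). For ABCB8 it was 0.31 (adjusted p = 0.0423, edgeR), from 57.46 ± 1.135 against 46.21 ± 5.29 CPM (SD, n = 3 each), with the lost calls given above. These are the libraries labelled RemoLV that have almost no MYL2, and with table names the same libraries are compared as Hyper vs. Control, where both again passed (1.61, adjusted p = 4.11e-06, and -0.31, adjusted p = 0.0418). No library stood apart from its group by Dixon's criterion in the 14 cases that could be tested, 7 members in each of DOX and MYO. The groups of 3 libraries, Control among them, were not tested.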

How the results depend on the processing

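Depth limited CP, FLVCR2 and STEAP2, which rest on few counts, and not the measured members, the lowest of which stood at 15.8 CPM. Under the settings other than the table names and library totals only, 304 of 329 member fold changes kept direction and side of the threshold, as did 867 of 931 in the fits without 1 library. Values below are counts of members or wider iron genes (higher, then lower) or log2 fold changes, and causes were not tested beyond the scaling shift given.

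With table names, DOX vs. Control had 2 members higher and 2 lower, 15 wider genes higher and 11 lower, TFRC 1.20 and SLC40A1 -1.23. MYO vs. Control had 2 members and 1 member, 13 and 11 wider genes, TFRC 0.74, FTH1 0.014, SLC40A1 -1.09 and ACO1 1.68. RemoLV vs. Control had 25 and 13 wider genes, TFRC 1.27, FTH1 0.011, FTL 0.04, SLC40A1 -1.64, ACO1 1.80, IREB2 0.093 and ABCB8 -0.36. Hyper vs. Control had 4856 genes called, 1 and 1 member, 23 and 12 wider genes, TFRC 0.40, SLC40A1 -0.63, ACO1 1.61 and ABCB8 -0.31. DOX vs. MYO had SLC40A1 -0.14 and ABCB8 0.067. RemoLV vs. Hyper had 0 genes called, 0 and 0 members, 0 and 0 wider genes, TFRC 0.87, SLC40A1 -1.01, ACO1 0.19 and ABCB8 -0.048.

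Library totals only moved the median of all genes against Control by 0.416 (DOX), 0.423 (MYO), 0.497 (RemoLV) and 0.157 (Hyper), by 0.343 in RemoLV vs. Hyper and by 0.26 in DOX and MYO vs. Hyper. DOX then had 3 members higher and 0 lower, 23 and 2 wider genes, TFRC 0.40, FTL 0.13 and IREB2 0.28. MYO had 2 and 0 members, 27 and 5 wider genes, TFRC 0.022, FTH1 0.43, FTL 0.14, ACO1 0.37 and IREB2 0.014. RemoLV vs. Control had 5 members higher, 22 and 6 wider genes, FTH1 0.51, FTL 0.45 and IREB2 0.44. RemoLV vs. Hyper had 3 members higher, 7 wider genes lower, FTH1 0.31 and FTL 0.17. DOX and MYO vs. Hyper had 5 and 0 members, 16 and 5 wider genes and FTH1 0.26.

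RLE size factors gave ACO1 -0.015 in DOX and FTL 0.003 in DOX vs. MYO, and DESeq2 gave the same 2 values, 311 genes called in Hyper vs. Control with 2 wider genes lower, 2 genes in DOX vs. MYO, and 2 members higher in DOX and MYO vs. Hyper. With only the compared groups in the fit, DOX had 0 members lower and 5 wider genes higher, MYO 1 member lower, RemoLV vs. Control 1 member higher, Hyper vs. Control 1 gene called, and DOX and MYO vs. Hyper 2 and 2 members. At least 10 counts in every sample gave FTH1 0.009 in MYO, 0.039 in RemoLV vs. Control and 0.005 in RemoLV vs. Hyper, and FTL 0.009 in RemoLV vs. Control. Without a filter, 6 genes were called in Hyper vs. Control, FTL was 0.001 in DOX vs. MYO, RemoLV vs. Hyper had 0 members higher, and DOX and MYO vs. Hyper had 3 wider genes higher. Without the libraries labelled RemoLV, an alternative chosen after seeing the data, FTL was 0.002 in DOX vs. MYO.

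Replicate numbers did not pair the samples over the series: deviations of same-numbered libraries correlated between -0.246 and 0.242 (32 pairs, median 0.00687, 4 over 0.1). The 3 pairs of DOX and Control, 0.117 to 0.242, were all over 0.1, and there the block ended no member's call (FTL -0.31, adjusted p = 0.0328; ABCB8 0.58, 0.0012, edgeR). With the number as a replicate block, TFRC was 0.066 and ACO1 -0.022 in DOX, MYO had 1 member lower (IREB2 lost, -0.37, adjusted p = 0.117) and FTH1 0.036, and DOX and MYO vs. Hyper had 2 members higher, 3 wider genes higher and FTH1 0.036.

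Without 1 library at a time, DOX vs. Control had 3787 to 6164 genes called, 1 to 2 members higher and 0 to 1 lower, 3 to 10 wider genes higher and 14 to 26 lower, TFRC -0.43 to 0.22, FTH1 -0.018 to 0.097, ACO1 -0.10 to 0.20 and IREB2 -0.31 to 0.019. MYO had 1 to 2 members higher and 0 to 2 lower, 5 to 9 wider genes higher, FTH1 -0.062 to 0.053 and ACO1 -0.18 to 0.11. RemoLV vs. Control had 1 to 2 members higher, FTH1 -0.071 to 0.043, FTL -0.096 to 0.01 and IREB2 -0.23 to 0.094. Hyper vs. Control had 0 to 2538 genes called, 0 to 1 member higher and 0 to 2 lower, 0 to 1 wider gene higher and 0 to 8 lower, FTH1 -0.034 to 0.081 and ABCB8 -0.073 to 0.12. DOX vs. MYO had FTL -0.051 to 0.04 and ACO1 -0.025 to 0.18. RemoLV vs. Hyper had 0 to 2 members higher and FTH1 -0.082 to 0.02. DOX and MYO vs. Hyper had 2530 to 5018 genes called, 1 to 2 members higher and 1 to 2 lower, 3 to 6 wider genes higher and 10 to 18 lower, and FTH1 -0.027 to 0.026. The ends 3787, 3 and 14 came without Control library 3, 2538 without Control library 2, and 2530 and 10 without Hyper library 1.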
